A study of Mus musculus with 6 samples.

Results

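The claudin genes described here are 10 rows of the deposited read table, Cldn1, Cldn2, Cldn3, Cldn4, Cldn6, Cldn7, Cldn8, Cldn10, Cldn12 and Cldn23, chosen by gene symbol as claudins expressed along the nephron, of 20896 transcripts with 1 per gene. RNA came from clonal lines of mpkCCDc11, a mouse line grown from cells of the kidney cortical collecting duct and immortalised with the simian virus large T antigen. There were 3 clones labelled as protein kinase A double knockouts (PKA dKO) and 3 control clones, with 1 library per clone. All 6 clones, controls included, grew for 4 days on permeable supports with 2% serum, insulin, dexamethasone, triiodothyronine, epidermal growth factor, selenite and transferrin. They were then held for 3 days in medium without serum or hormones that contained 0.1 nM dDAVP, a vasopressin analog, so no clone without dDAVP was compared. Which genes were edited is not in the labels, and each clone is 1 line, so the knockout and other differences between clones cannot be told apart.

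Claudins are small membrane proteins that pass through the membrane several times and assemble into the strands of the tight junction. Their extracellular loops from adjoining cells meet in the space between the cells and set whether sodium, chloride, calcium or water can pass. In the collecting duct the junction is a barrier to sodium with a path for chloride, and claudins 3, 4, 7 and 8 are the members best known there. Claudins 2 and 10 are known as pore formers of the proximal tubule and, for claudin 10, the thick ascending limb. Inside the cell, claudins bind the plaque proteins of the zonula occludens family.

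What all 10 members share in sequence is the claudin signature of the first extracellular loop, a Gly-Leu-Trp triplet followed by a pair of cysteines. It is shown because it is typical of the family and shows which members are alike. The codon pattern was found in the coding sequence of 10 of 10 members and in 12 of the 15 other rows whose symbol begins with Cldn, in GRCm38 transcripts of GENCODE M21. Cldn15 and the rows listed as Cldn25 and Cldn26 lacked it, and Cldnd2 had it. Capitals mark the codons for Gly, Leu, Trp and each Cys, read 5′ to 3′ on the coding strand.
Cldn4: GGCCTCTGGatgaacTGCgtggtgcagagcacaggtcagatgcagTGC
Cldn3: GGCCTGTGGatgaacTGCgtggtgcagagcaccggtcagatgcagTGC
Cldn6: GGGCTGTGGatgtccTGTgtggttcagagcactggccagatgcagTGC
Cldn9: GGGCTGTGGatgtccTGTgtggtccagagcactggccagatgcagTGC
Cldn7: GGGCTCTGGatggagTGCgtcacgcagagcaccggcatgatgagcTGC
Cldn8: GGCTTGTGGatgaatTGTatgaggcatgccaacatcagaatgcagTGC
Cldn1: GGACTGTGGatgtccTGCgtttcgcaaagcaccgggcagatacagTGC
Cldn2: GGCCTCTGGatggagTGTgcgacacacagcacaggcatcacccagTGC
Cldn12: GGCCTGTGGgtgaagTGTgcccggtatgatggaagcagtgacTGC
Cldn6 and Cldn9, which is not a member, had 47 of 48 identical bases in this stretch, and Cldn3 and Cldn4 had 46 of 48. In Cldn12 the cysteine codons enclose 8 codons, against 9 in each other member. The longest run of bases shared by the whole transcripts of Cldn6 and Cldn9 was 37, and that of Cldn3 and Cldn4 was 35, both within the coding sequences. The sources used here do not give the rule for reads that map to more than 1 place; such stretches could split reads between the paralogs.

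Depth behind the values was 38760162, 30541578 and 37854925 reads in dKO clones 1, 2 and 3, and 39780099, 28596444 and 42515838 reads in control clones 1, 2 and 3. The 10 claudins together took 43005 to 67117 of these reads in dKO libraries and 49205 to 78529 in control libraries. Prkaca, which encodes a PKA catalytic subunit and was taken to be an edited gene, had 7.52 ± 0.92 CPM (reads scaled to library size, with totals adjusted by the TMM method) in dKO clones and 99.8 ± 29.6 CPM in control clones (SD, n = 3 each). Aqp2, the vasopressin-regulated water channel gene of principal cells, had 2.64 ± 0.78 CPM in dKO clones and 232 ± 145 CPM in control clones. dKO clone 3 and control clone 1 form a pair apart, with 2363 and 2443 transcripts lacking any read, while the remaining libraries lacked 863 to 1045. Results below are given without this pair where that changes them. Principal-cell markers were present, with a summed level of 1236 to 1350 CPM in dKO clones and 1154 to 1745 CPM in control clones over 11 genes. These sums do not show how single markers differed, as Tfcp2l1, given below, made up most of each dKO sum. On average 5 of the 11 were higher in dKO clones. At an unadjusted limma-trend p under 0.05, 4 were lower and 1 was higher (6.24% of all transcripts). After adjustment 1 passed, Aqp2 (0.168% of all transcripts). Endothelial markers summed to 1.66 to 6.59 CPM in dKO clones and 1.91 to 7.07 CPM in control clones over 6 genes.

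Which claudins these cells express was read per length, as CPM per kilobase of transcript, because reads per gene grow with transcript length. Cldn4, which in collecting duct cells limits sodium and passes chloride, was the highest, at 264 ± 52.0 CPM per kilobase in dKO clones and 261 ± 76.4 in control clones (SD, n = 3 each). Cldn6, a claudin known from embryonic epithelia and the developing kidney, was next at 211 ± 18.8 in dKO clones and 225 ± 68.7 in control clones. Cldn3, a sealing claudin of many epithelia, had 175 ± 36.0 CPM per kilobase in dKO clones and 181 ± 33.7 in control clones. These 3 kept the same order, Cldn4 over Cldn6 over Cldn3, within each of the 6 libraries, and in control clone 2 the level of Cldn8 came between Cldn6 and Cldn3. Their ranges over the 6 clones overlapped, so the order holds within a library and not between libraries.

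Cldn7, a collecting duct claudin also found along the lateral membrane, had 126 ± 15.5 CPM per kilobase in dKO clones and 128 ± 20.9 in control clones. Cldn8, which is known to seal the distal nephron against sodium and to bring claudin 4 to the junction of collecting duct cells, had 88.1 ± 5.40 in dKO clones and 142 ± 36.9 in control clones. Cldn7 was above Cldn8 in 4 of 6 libraries, namely the 3 dKO libraries and control clone 3. Cldn12, a widely expressed claudin, had 45.2 ± 3.70 CPM per kilobase in dKO clones and 47.6 ± 5.15 in control clones, below Cldn8 in all 6 libraries with no overlap of the ranges. Among all 20896 transcripts ranked on this scale, Cldn4 stood at 163, Cldn6 at 204, Cldn3 at 269, Cldn7 at 423, Cldn8 at 480 and Cldn12 at 1635.

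The other 4 members were far lower. Cldn23, a claudin with a long cytoplasmic tail, averaged 6.14 ± 1.26 CPM per kilobase in dKO clones and 6.79 ± 1.79 in control clones. Cldn1, the barrier claudin of skin, averaged 1.73 ± 0.26 in dKO clones and 2.56 ± 1.12 in control clones. Cldn2, the cation and water pore of the proximal tubule, averaged 0.78 ± 0.34 in dKO clones and 1.59 ± 1.31 in control clones. Cldn1 was above Cldn2 within each of 6 libraries, although their ranges overlapped. Cldn10 had 2, 4 and 0 reads in dKO clones 1, 2 and 3 and 0, 8 and 6 reads in control clones 1, 2 and 3. It did not pass the filter on low reads, and no fold change is given for it.

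**Figure D1:**
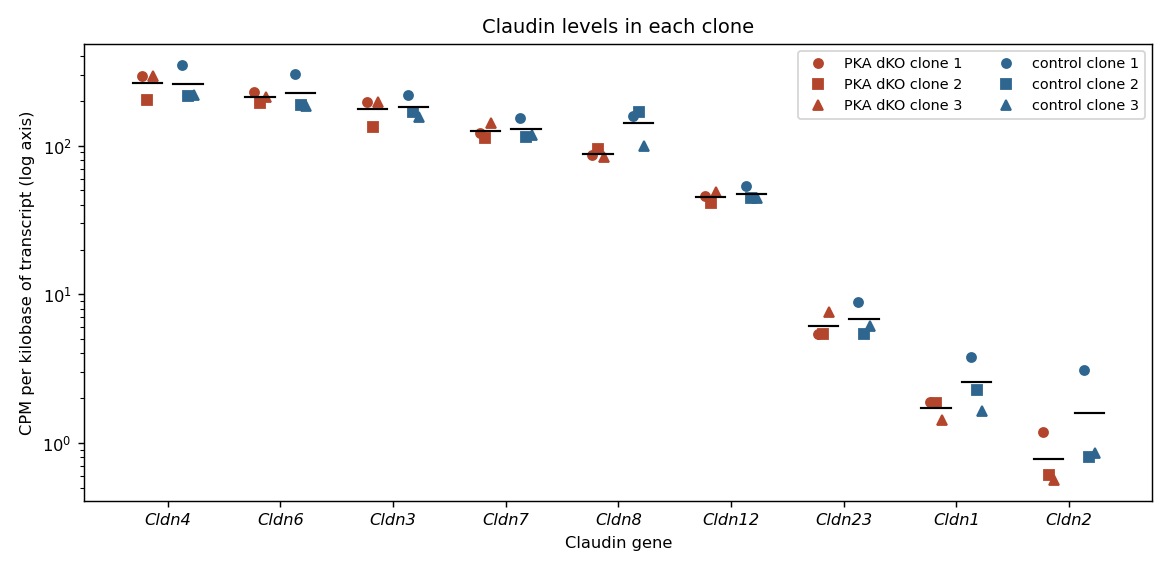
Level of 9 claudins in each clone, in CPM per kilobase of transcript on a log axis, with PKA dKO clones in red left of control clones in blue and a bar at each mean of 3 clones; Cldn10, with reads of 0 in some libraries, is left out. Cldn4, Cldn6, Cldn3, Cldn7 and Cldn8 lie above Cldn12, and Cldn8 is the member whose dKO points all lie below its control points.

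The mixture of claudins was compared as each member's share of the summed FPKM (fragments per kilobase of transcript, scaled for depth by the authors) of the 10 members, which cancels differences in scale between libraries. The 6 most abundant members made up 98.8% to 99.1% of the sum in each library. Cldn4 made up 29.6%, 25.9% and 29.4% in dKO clones 1, 2 and 3, against 27.5%, 23.6% and 25.9% in control clones 1, 2 and 3. The groups overlapped, and the difference of 2.66 percentage points did not pass an exact permutation test (two-sided p = 0.3; the smallest p possible with 3 against 3 is 0.1). Cldn8 made up 8.70%, 11.96% and 8.41% in dKO clones 1, 2 and 3, against 12.5%, 18.2% and 11.89% in control clones 1, 2 and 3. Its share in dKO clone 2 thus lay just above that in control clone 3. The mean Cldn8 share differed by -4.51 percentage points, dKO minus control. Shares have a fixed sum, so a lower share of 1 member raises those of the others. The mean shares of Cldn3, Cldn6, Cldn7 and Cldn12 differed by 0.78, 0.92, 0.15 and 0.12 percentage points, each higher in dKO clones. For Cldn6, Cldn7 and Cldn12 this was less than the SD within either group. For Cldn3 it was above the SD of control clones, 0.70, and below that of dKO clones, 1.58. The Cldn7 share depends on the measure: recomputed from recovered reads it moved by up to 1.19 percentage points in a library, more than its group difference. Over all 6 clones the higher shares were not higher mean levels. Mean CPM per kilobase of Cldn3, Cldn6, Cldn7 and Cldn12 was slightly lower in dKO clones, as given above. That direction rests on control clone 1, without which their log2 fold changes were 0.096, 0.19, 0.11 and 0.020. With dKO clone 3 left out as well they were 0.011, 0.19, 0.013 and -0.032.

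**Figure D2:**
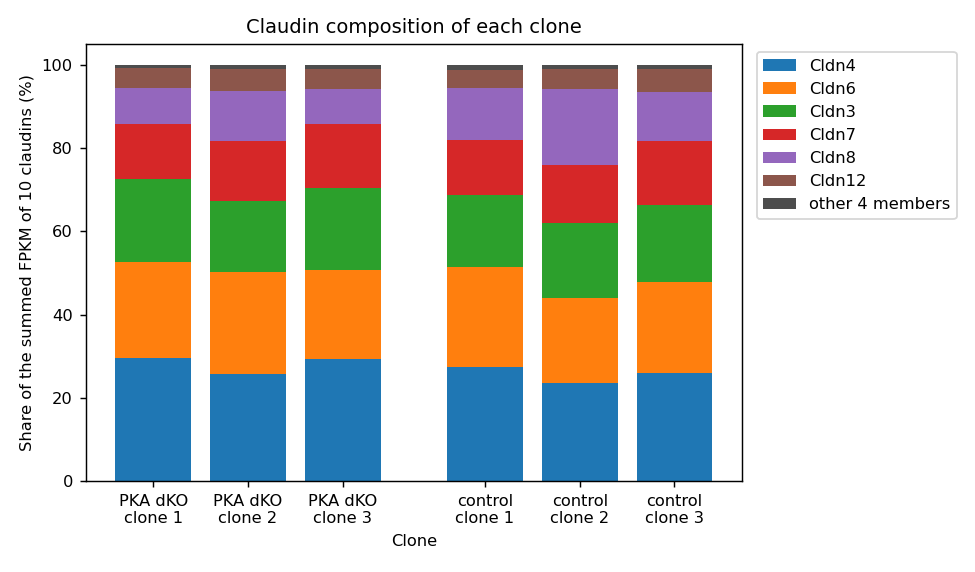
Share of each claudin, in percent of the summed FPKM of the 10 members, with the 3 PKA dKO clones left of the 3 control clones. Cldn4 takes 25.9% to 29.6% in dKO clones and 23.6% to 27.5% in control clones, and the Cldn8 band is widest in control clone 2, at 18.2%.

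Claudin levels under dDAVP were then compared between dKO and control clones. No claudin changed by the test used here: 0 of the 9 members tested passed limma-trend with a Benjamini-Hochberg adjusted p under 0.05, where 28 of 16683 transcripts passed (0.168%), 19 of them lower (0.114%) and 9 higher (0.0539%) in dKO clones. With so low a background, 0 of 9 says little about the family. At an unadjusted p under 0.05 there was 1 member, Cldn8, against 6.24% of all transcripts. edgeR's quasi-likelihood test on recovered reads also called 0 members (0.168% of all transcripts), and DESeq2 called 1, Cldn8 (1.71% of the transcripts it tested). The median log2 fold change of the 9 members was -0.07, beside -0.0015 over all transcripts tested; 8 were negative and 1 positive, but without control clone 1 only 3 were negative and 6 positive. Because whole cultures were measured, fewer cells expressing a gene and less RNA per cell cannot be told apart.

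Cldn8 (ENSMUSG00000050520.4, GRCm38 chromosome 16, 88560828 to 88563183, minus strand, protein coding, 1 exon) was the member that differed most clearly. It had 203, 221 and 197 CPM in dKO clones 1, 2 and 3, against 375, 394 and 235 CPM in control clones 1, 2 and 3, from 6993 to 8162 reads per dKO library and 10210 to 13537 reads per control library. All 3 dKO clones lay below every control clone, and control clone 3 lay much nearer to the dKO clones than to the other controls. Ranges that did not overlap were found for 10.8% of all transcripts tested, and for 5.67% in this direction, so 1 of 9 members is near the background. The mean was 207 ± 12.7 CPM in dKO clones and 335 ± 86.8 CPM in control clones (SD, n = 3 each). The log2 fold change was -0.66 (SE 0.19, 95% interval -1.07 to -0.25), which is 1.58-fold lower, and it missed the threshold (limma adjusted p = 0.348).

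The call on Cldn8 depended on the test. In the authors' deposited table, made with edgeR, Cldn8 had a log2 fold change of -0.71 and a false discovery rate of 0.00559, in a table where 354 of 10190 transcripts were below 0.05 (3.47%), 254 of them lower in dKO clones (2.49%). Of the 8 members in the authors' deposited table, 1, Cldn8, was below 0.05. DESeq2 gave -0.70 with an adjusted p of 0.0174. edgeR's quasi-likelihood test gave -0.69 with an adjusted p of 0.289. The difference kept its sign in 19 of 19 alternative settings, from -0.89 to -0.51. This is not independent support, as all settings reuse these libraries. Every dKO clone lay below every control clone, so leaving out libraries could not turn the sign. Leaving out control clone 3 gave -0.89 (limma adjusted p = 0.0507) and leaving out control clone 2 gave -0.52 (0.594). With dKO clone 3 and control clone 1 both left out it was -0.51 (0.0794).

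**Figure D3:**
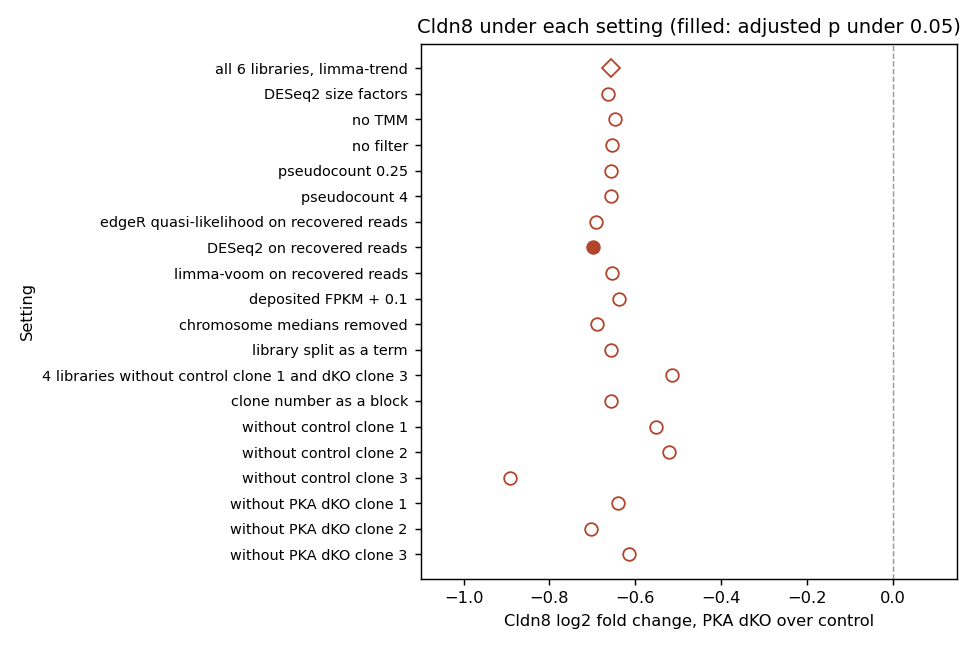
Log2 fold change of Cldn8, PKA dKO over control, on the horizontal axis under each setting named on the vertical axis; the diamond is limma-trend on all 6 libraries and a filled marker has an adjusted p under 0.05. All points lie below 0, between -0.89 and -0.51, and the DESeq2 point at -0.70 is the filled one.

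Cldn8 was also set against Cldn4, its known partner in the collecting duct, within each library; this ratio was chosen after the values were seen and was not tested. Cldn8 reads were 0.38, 0.60 and 0.37 of Cldn4 reads in dKO clones 1, 2 and 3, against 0.59, 1.00 and 0.60 in control clones 1, 2 and 3. Among these, dKO clone 2 was level with those of control clones 1 and 3, while dKO clones 1 and 3 lay below every control. Against Cldn12 the ratios were 1.24, 1.49 and 1.13 in dKO clones and 1.95, 2.46 and 1.47 in control clones, again with dKO clone 2 reaching control clone 3. Against Cldn3, dKO clone 2 likewise lay above control clone 3. Against Cldn6 the groups did not overlap, with 0.59, 0.77 and 0.62 in dKO clones and 0.82, 1.41 and 0.85 in control clones. Against Cldn7 they did not overlap either, but dKO clone 2 lay just below control clone 3. None of these ratios was tested or compared with a background, and the CPM of Cldn8 alone already separated the groups.

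The other claudins of the collecting duct showed no difference that passed. Cldn4 (ENSMUSG00000047501.3, chromosome 5, 134945119 to 134946934, minus strand, 1 exon) had 533, 369 and 532 CPM in dKO clones 1, 2 and 3, against 634, 393 and 395 CPM in control clones 1, 2 and 3. The groups overlapped throughout, and clones of 1 group differed more than the groups did. The log2 fold change was 0.029 (SE 0.21, 95% interval -0.44 to 0.50), with a sign that turned in 5 of 19 settings. The interval leaves room for differences from 0.74-fold to 1.42-fold. In the authors' deposited table it was 0.0044 with a false discovery rate of 1.

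Cldn3 (chromosome 5, 134986214 to 134987472, plus strand, 1 exon) lies 39.3 kb from Cldn4. It had 247, 168 and 245 CPM in dKO clones 1, 2 and 3, against 276, 210 and 196 CPM in control clones 1, 2 and 3. As for Cldn4, dKO clone 2 was the lowest dKO library and control clone 1 the highest of all. On the log2 scale the median gene of chromosome 5 stood 0.16 above the mean of the libraries in control clone 1 and at -0.15 in control clone 3; the part of this in Cldn3 and Cldn4 was not tested. An antisense gene, Wbscr25, overlaps Cldn3 on the other strand, and the sources used here do not say whether counting used strand. Cldn3 had a log2 fold change of -0.055 (95% interval -0.46 to 0.35), with a sign that turned in 3 of 19 settings.

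Cldn7 (chromosome 11, 69965396 to 69967885, plus strand, 4 exons) had 160, 150 and 189 CPM in dKO clones 1, 2 and 3, against 202, 152 and 157 CPM in control clones 1, 2 and 3. The ranges overlapped over most of their length. The log2 fold change was -0.028 (95% interval -0.36 to 0.30; sign turned in 3 of 19 settings). Epcam, whose product binds claudin 7 and keeps it from degradation, likewise showed no difference that passed, at 486 ± 15.2 CPM in dKO clones and 474 ± 76.1 CPM in control clones.

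Cldn6 (chromosome 17, 23679365 to 23682446, plus strand, 3 exons) had 344, 288 and 319 CPM in dKO clones 1, 2 and 3, against 456, 280 and 275 CPM in control clones 1, 2 and 3. Control clone 1 alone lay above the rest. The group difference was -0.053 on the log2 scale (95% interval -0.48 to 0.37), and 0.19 without control clone 1. Cldn12 (chromosome 5, 5505109 to 5514873, minus strand, 4 exons) varied least, with 163, 148 and 175 CPM in dKO clones and 192, 160 and 160 CPM in control clones. It had a log2 fold change of -0.071 (95% interval -0.36 to 0.22), the narrowest interval of the members.

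Among the low members, Cldn23 (chromosome 8, 35824709 to 35826559, minus strand, 1 exon) had 10.0, 10.0 and 14.0 CPM in dKO clones 1, 2 and 3, against 16.3, 9.98 and 11.4 CPM in control clones 1, 2 and 3. The groups overlapped, with a log2 fold change of -0.13 (95% interval -0.64 to 0.38). Cldn1 (chromosome 16, 26356642 to 26371841, minus strand, 4 exons) had 6.12, 6.02 and 4.63 CPM in dKO clones, against 12.3, 7.30 and 5.27 CPM in control clones. Only control clone 3 fell within the dKO range, and the log2 fold change was -0.49 (95% interval -1.17 to 0.19; limma adjusted p = 0.988). Leaving out control clone 1 gave -0.16 for Cldn1, and leaving out dKO clone 3 as well gave -0.024. Cldn2 (chromosome X, 139800828 to 139811386, plus strand, 2 exons) had 3.59, 1.84 and 1.71 CPM in dKO clones, against 9.41, 2.45 and 2.60 CPM in control clones. Most of the Cldn2 difference rests on control clone 1: the log2 fold change of -0.79 (95% interval -1.92 to 0.34) became -0.16 without that clone and 0.031 with dKO clone 3 left out as well.

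**Figure D4:**
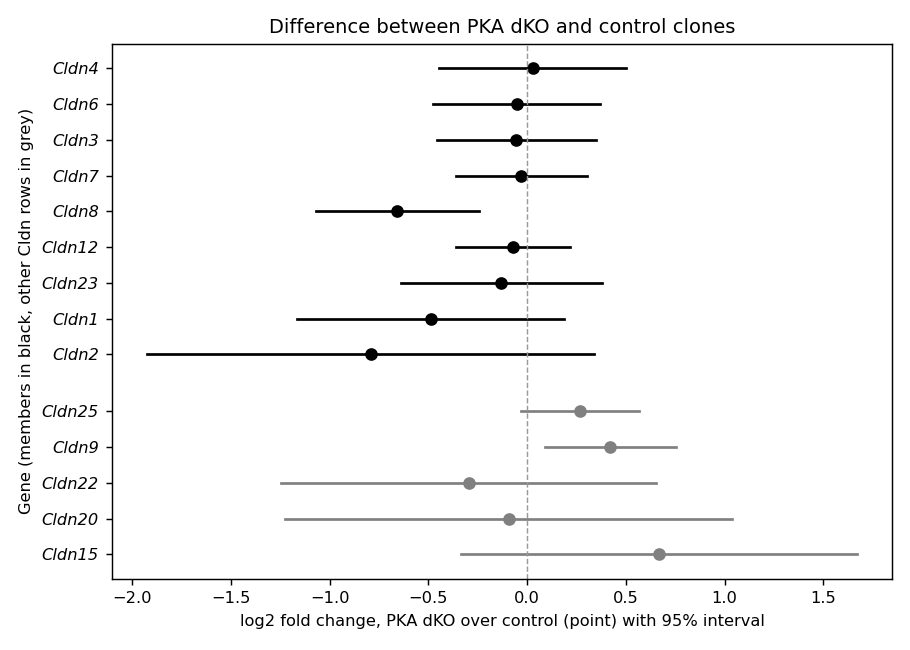
Log2 fold change, PKA dKO over control, with its 95% interval for the 9 claudins tested (black, ordered by level) and for the 5 most abundant other Cldn rows (grey). The intervals of Cldn8, -1.07 to -0.25, and of Cldn9, 0.09 to 0.75, do not reach 0; neither passed after adjustment over all transcripts.

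Across the family, control clone 1 held the highest CPM for 8 of the 9 members tested, with control clone 2 the highest for Cldn8. Over all transcripts tested, control clone 1 was the highest library for 26.0%. Within the dKO group, clone 2 had the lowest CPM of the 6 libraries for 4 members and clone 3 for 3. Over all transcripts tested, these were the lowest library for 14.2% and 19.8%. Summed over the 10 members the level was 982, 785 and 986 CPM per kilobase in dKO clones 1, 2 and 3, against 1254, 907 and 830 in control clones 1, 2 and 3. The groups overlapped, with control clone 1 above all others. The spread among control clones was wider than among dKO clones for 8 of these 9 genes, and for Cldn8 the coefficient of variation was 6.13% in dKO clones and 25.9% in control clones; this difference in spread was not tested.

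Of the 15 other rows whose symbol begins with Cldn, 13 passed the filter and 0 passed limma-trend, beside 0.168% of all transcripts. Among these 13, 1, Cldn9, had an unadjusted p under 0.05, beside 6.24% of all transcripts. edgeR's quasi-likelihood test and DESeq2 each called 0. DESeq2 gave no adjusted p for Cldn5, Cldn11, Cldn13, Cldn14, Cldn16, Cldn20, Cldn26 and Cldnd2, so its 0 does not cover them. Cldn9, the close relative of Cldn6 known from the inner ear, had 61.2, 55.5 and 48.1 CPM in dKO clones 1, 2 and 3, against 46.0, 35.1 and 42.1 CPM in control clones 1, 2 and 3. All dKO clones lay above every control clone, which is the opposite order to Cldn8. Its log2 fold change was 0.42 (SE 0.15, 95% interval 0.09 to 0.75, limma adjusted p = 0.559). It passed with dKO clone 3 and control clone 1 both left out, at 0.61 (limma adjusted p = 0.0209). In that setting 518 of 17252 transcripts passed. The authors' deposited table gave 0.41 for Cldn9 with a false discovery rate of 0.154. Cldn9 and Cldn6 point towards each other on chromosome 17 with 137 bases between their ends, so reads running past the end of either gene could be assigned to the other unless strand was used.

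The row listed as Cldn25, named Cldnd1 in GENCODE M21, had 86.5 ± 10.5 CPM in dKO clones and 71.6 ± 6.11 CPM in control clones, with a log2 fold change of 0.27 (limma adjusted p = 0.883). Cldn15, Cldn20 and Cldn22 were between 0.80 and 1.99 CPM, 0.62 and 0.95 CPM, and 0.92 and 1.88 CPM over all clones, with log2 fold changes of 0.67, -0.09 and -0.30 that did not pass; Cldn22 and Cldn20 overlap genes on the opposite strand, and Cldn22 has the same signature letters as its neighbour Cldn24. Cldn17, named after its values were seen because it is the claudin nearest to Cldn8, at 53.8 kb, had 4, 4 and 0 reads in dKO clones 1, 2 and 3 and 22, 20 and 6 reads in control clones 1, 2 and 3. It did not pass the filter, so it was not tested. On these few reads its order of groups was that of Cldn8, an order without overlap that 5.67% of all transcripts tested also had. Any link between Cldn17 and Cldn8 was not tested. The median gene of chromosome 16 stayed between -0.04 and 0.05 on the log2 scale in the 6 libraries.

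The start sites of members were searched on both strands for the full cyclic AMP response element, TGACGTCA, the palindrome bound by CREB, which PKA phosphorylates. RefSeq promoters of GRCm38.p6, from 250 bases before to 50 after a start, were found for 8 members, as 12 windows. The element was in 2 of these 12, at Cldn7 and Cldn6, against 1.79% of all 32851 promoters. Capitals mark the element, which begins 38 bases before a RefSeq start of Cldn7 and 40 before that of Cldn6. For Cldn7 this start is not the transcript start given above, and the other Cldn7 window lacked the element. The surrounding bases are shown because these claudins are among the 4 most abundant and neither passed the test.
Cldn7, chr11:69965357-69965416, plus strand: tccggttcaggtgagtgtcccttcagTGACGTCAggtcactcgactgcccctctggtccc
Cldn6, chr17:23679299-23679358, plus strand: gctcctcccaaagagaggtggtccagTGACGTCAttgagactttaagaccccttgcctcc
The grainyhead palindrome AACCGGTT was in 0 of the 12 windows, against 0.146% of all promoters. A match describes letters in a window and does not show that a factor binds there. Promoters of Cldn8 and Cldn23 were not analysed here.

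Genes of the junction around the claudins were followed in a list of 29 plaque proteins, junction membrane proteins and partners, all of which were tested. By limma-trend 0 of 29 passed, beside 0.168% of all transcripts, and DESeq2 and edgeR's quasi-likelihood test called 0 as well. Unadjusted, 3 of 29 had p under 0.05 (6.24% of all transcripts did), 2 higher and 1 lower in dKO clones, and the median log2 fold change was -0.03. The list was chosen with earlier results of these data known. The lowest p belonged to Ybx3, a transcription factor held at the junction by zonula occludens proteins, with 196, 189 and 181 CPM in dKO clones 1, 2 and 3, against 259, 219 and 251 CPM in control clones 1, 2 and 3. The groups did not overlap, and the log2 fold change was -0.36 (limma adjusted p = 0.511), or -0.19 with chromosome medians removed. Cxadr, an adhesion receptor of the junction, had 389, 416 and 535 CPM in dKO clones and 380, 292 and 323 CPM in control clones, with a log2 fold change of 0.43 (limma adjusted p = 0.623). The scaffold gene Magi3 stood at 0.42 and passed in 1 of 19 settings, the 1 that leaves out both dKO clone 3 and control clone 1. Tjp3, which encodes a zonula occludens protein, stood at -0.31 and also passed there, where 518 of 17252 transcripts passed. The abundant members F11r, a junctional adhesion molecule, and Epcam had log2 fold changes of -0.21 and 0.05.

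A second list held 29 genes known to regulate claudins or the junction, of which 29 were tested; limma-trend and edgeR's quasi-likelihood test called 0 (0.168% of all transcripts each) and DESeq2 called 1, Klf5 (1.71%). Unadjusted, 9 of 29 had p under 0.05, beside 6.24% of all transcripts, 3 higher and 6 lower in dKO clones, and the median log2 fold change was -0.11. This list too was chosen with earlier results of these data known, so the count is not independent of them. Klf5, Tfcp2l1, Twist1, Ovol2 and Stk39 are described because they had its lowest p, so their group differences are selected. Klf5, an epithelial transcription factor gene on chromosome 14, had 46.7, 37.8 and 37.5 CPM in dKO clones 1, 2 and 3, against 77.4, 69.0 and 60.1 CPM in control clones 1, 2 and 3. All dKO clones were below every control clone. It stood at -0.76 on the log2 scale (limma adjusted p = 0.111), it passed in 3 of 19 settings, and the authors' deposited table gave -0.77 with a false discovery rate of 1.30e-04. The median gene of chromosome 14 stood at -0.44 in dKO clone 3 and at 0.28 in control clone 1, and with chromosome medians removed the log2 fold change was -0.55. Tfcp2l1, a transcription factor of collecting duct cells, had 735, 776 and 742 CPM in dKO clones and 639, 403 and 542 CPM in control clones, with a log2 fold change of 0.53 (limma adjusted p = 0.489) and a false discovery rate of 0.0212 in the authors' deposited table. It passed with dKO clone 3 and control clone 1 both left out, at 0.70 (limma adjusted p = 0.00803), as did 518 of 17252 transcripts.

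Twist1, a transcription factor gene of mesenchymal cells, was low, at 9.01, 8.99 and 7.49 CPM in dKO clones 1, 2 and 3 and 0.58, 4.06 and 4.67 CPM in control clones 1, 2 and 3. Its log2 fold change was 1.88 (limma adjusted p = 0.472). With dKO clone 3 and control clone 1 both left out it was 1.05 and passed, as did 518 of 17252 transcripts. Ovol2, a transcription factor gene that restrains mesenchymal genes, had 3.60 ± 0.53 CPM in dKO clones and 6.32 ± 1.06 CPM in control clones. Stk39, which encodes a kinase of the WNK pathway, had 8.61, 3.48 and 16.2 CPM in dKO clones and 1.69, 2.78 and 5.23 CPM in control clones, so dKO clone 2 lay within the control range. The log2 fold change of Stk39 was 1.42 (limma adjusted p = 0.606), 0.91 without dKO clone 3, 2.00 without dKO clone 2 and 0.52 with dKO clone 3 and control clone 1 both left out (0.648). The abundant members St14, Elf3 and Arhgef2, which encode a membrane protease, an epithelial transcription factor and an exchange factor bound at the junction, stood at -0.11, -0.21 and -0.09. Klhl3, named after its values were seen because its product is known to target claudin 8 for degradation, had 0.42 CPM on average in dKO clones and 0.55 CPM in control clones.

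**Figure D5:**
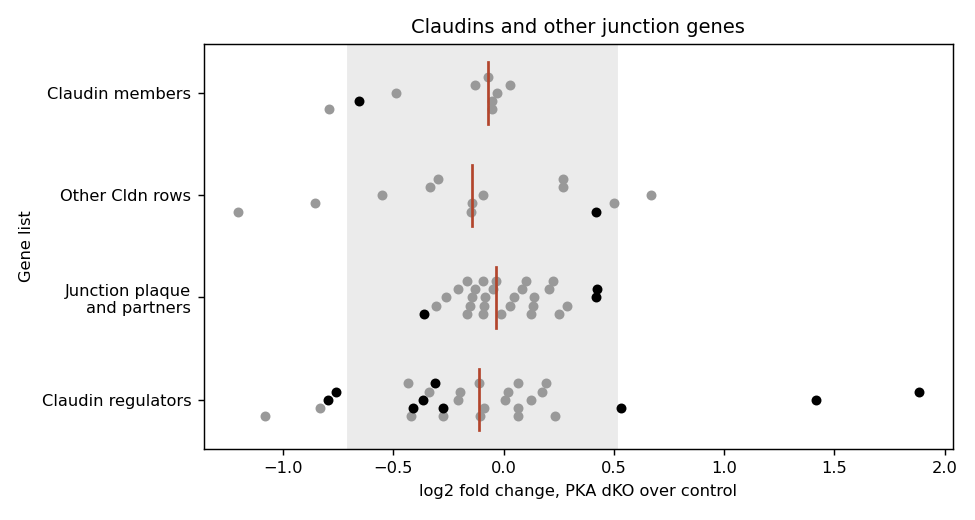
Log2 fold change, PKA dKO over control, of each gene tested in 4 groups of genes given on the vertical axis; black points have an unadjusted p under 0.05, red bars are medians and the grey band holds the middle of all transcripts, from the 5th percentile at -0.71 to the 95th at 0.52. Claudin medians lie near 0, and Cldn8, at -0.66, is the black point among the members.

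For 3 marker lists of other cell types the summed levels of the groups did not overlap, and their part in the claudin values was not tested. For the endothelial list, given above, and for the intercalated-cell and leukocyte lists the groups overlapped. Intercalated-cell genes summed to 18.9 to 45.1 CPM in dKO clones and 25.4 to 44.5 CPM in control clones. Leukocyte genes summed to 2.02 to 4.88 CPM in dKO clones and 3.18 to 8.54 CPM in control clones. The 5 proximal tubule genes summed to 699 to 865 CPM in dKO clones and 311 to 407 CPM in control clones, with 2 of 5 higher on average in dKO clones, and nearly all of the sum was Lrp2. The 6 genes of the thick limb and distal tubule, which include Cldn16, summed to 7.75 to 10.5 CPM in dKO clones and 10.8 to 22.8 CPM in control clones, with 1 of 6 higher on average in dKO clones. The 5 fibroblast genes, which include Twist1, summed to 8.50 to 12.5 CPM in dKO clones and 1.49 to 8.18 CPM in control clones, with 2 of 5 higher on average in dKO clones, and Twist1 made up most of the dKO sum. None of the marker genes in the table was without a read in all 6 libraries.

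For each of the 3 most abundant claudins, the genes with the most similar pattern over the 6 clones were found by Pearson correlation of log2 levels among 11773 other genes with a mean of at least 1 CPM. Cldn4 was closest to Gnb2 (r = 0.999), Cttnbp2nl (0.999) and Pkd2l2 (0.999). Cldn6 was closest to Impa2 (0.998), Rhoq (0.997) and Lrrc58 (0.997). Cldn3 was closest to Nudt14 (0.997), Jmjd8 (0.987) and Mir22hg (0.986). With 6 libraries such values are common: 421 genes had r above 0.9 with Cldn4, 487 with Cldn6 and 232 with Cldn3. All these values share the same libraries, so they are a description of 6 clones.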

How the data were processed

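RNA of the 6 clones was depleted of ribosomal RNA and made into stranded libraries, per the labels' protocols. STAR 2.5.2a, SAMtools, edgeR, HOMER 4.8 and the build GRCm38.p5 are listed in the submitters' processing notes with no roles. The deposited read columns are a signal: judged from the values, the authors scaled every library to nearly the same total. Each value was a whole multiple of a step per library, which gave whole reads for 100% of values (tolerance 0.01). The authors also deposited FPKM and, per the file headers, log2 fold changes, p-values and false discovery rates in a comparison table.

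CPM are recovered reads over TMM-adjusted totals. Transcripts kept by filterByExpr (minimum 10 reads, total 15) were tested with limma-trend (limma 3.58.1, edgeR 4.0.16, R 4.3.3) on log2 of TMM-adjusted scaled reads plus 1, with group as the term; fold changes of low genes are understated. The p-values were adjusted by Benjamini and Hochberg over all 16683 transcripts tested (threshold 0.05). They set the group difference against the spread between clones within groups, with each variance drawn towards a trend over all transcripts. Within groups, libraries differed beyond sampling noise (chi-square per degree of freedom 17.9 to 62.4). The scripts were tested on simulated data. The order of claudins by deposited FPKM was that by CPM per kilobase. DESeq2 1.42.0, edgeR's quasi-likelihood test, voom, other scalings, filters, pseudocounts, FPKM, chromosome medians, a library split, a clone block and leaving out each library were alternatives.

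Members and lists were chosen with earlier results of these data known. Named were all members, the 5 other Cldn genes with the highest mean FPKM and, of each list, the 5 with the lowest p and the 3 with the highest mean FPKM. Of these, 1 gene of the junction list is not reported here. Coordinates are those of the deposited table, exons come from GENCODE M21 and promoters from RefSeq.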

Additional observations from a re-analysis of the deposited data

How the results depend on the processing

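The number of transcripts called, 28 with limma-trend on all libraries, was 17 without TMM scaling, 0 without a filter (1094 at an unadjusted p under 0.05), 91 on FPKM, 213 with DESeq2, 71 with the library split as a term, 518 within the 4 libraries left without dKO clone 3 and control clone 1 and 11 to 146 when 1 library was left out: 13, 11 and 47 without dKO clones 1, 2 and 3, and 146 without control clone 1. Claudins called were 0 in every setting except DESeq2, with 1, and 0 whichever library was left out. Of the other Cldn genes and both lists, 0 were called by limma and 1 by DESeq2 (Klf5), beside 213 of 12475 transcripts by DESeq2. On FPKM 2 were called (Stk39, Twist1), beside 91 of 16683 transcripts. Within the 4 libraries 6 were called (Cldn9, Klf5, Magi3, Tfcp2l1, Tjp3, Twist1), beside 518 of 17252 transcripts. Signs turned within the 4 libraries for Cldn2 (0.031), Cldn3 (0.011), Cldn6 (0.19) and Cldn7 (0.013), and with chromosome medians removed for Cldn4 (-0.0083). With 1 library left out, log2 fold changes ran from -0.77 to -0.16 for Cldn1, -1.13 to -0.16 for Cldn2, -0.15 to 0.13 for Cldn3, -0.089 to 0.26 for Cldn4, -0.18 to 0.19 for Cldn6, -0.12 to 0.11 for Cldn7, -0.12 to 0.020 for Cldn12 and -0.29 to 0.076 for Cldn23. Over all settings Cldn8 ran from -0.89 to -0.51 and Cldn1 from -0.77 to -0.024, the last within the 4 libraries. The cause of these changes was not tested. The difference in the Cldn4 share ran from 1.62 to 3.88 percentage points with 1 library left out.

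Clone numbers did not pair the libraries: same-numbered clones correlated at -0.36, 0.64 and -0.34 in their deviations from the group means. With the clone number as a replicate block 196 of 16683 transcripts, 0 claudins and 3 genes of the lists (Klf5, Stk39, Twist1) were called. Cldn8 had a limma adjusted p of 0.0587 there.

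Depth limits the low members: 1 CPM was 30.6 to 43.4 reads, and Cldn10 had 0 to 8 reads per library, near the floor of 3 reads.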
